A study of Mus musculus with 8 samples.

Results

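The genes described here are Mmp3, Mmp9, Mmp10, Mmp13, Mmp14, Plau, Plaur, Timp2 and Timp3, which encode extracellular matrix proteases, the urokinase branch of the plasminogen system and protease inhibitors. Their accessible chromatin was read from ATAC-seq, in which the transposase Tn5 inserts sequencing adapters into open DNA, in cutaneous squamous cell carcinoma (SCC) cells of the mouse. A region was taken as belonging to a gene when it overlapped the gene body or the 20 kb before its start (GENCODE M21, GRCm38, which is the mm10 build of the peak lists). This gave 36 regions out of the 69399 formed by merging the peaks of all 8 libraries. Each of the 36 lay in the window of 1 gene of the group alone. The regions fell on 8 of the 9 genes: 9 at Timp2, 7 at Timp3, 5 at Mmp14, 5 at Plaur, 4 at Plau, 3 at Mmp9, 2 at Mmp13 and 1 at Mmp10. No peak was called in the window of Mmp3 in any library.

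The study asked how focal adhesion kinase (FAK, encoded by Ptk2) bears on chromatin accessibility, and compared 4 cell lines with 2 libraries each. All 4 came from Ha-Ras-driven carcinomas raised by DMBA and TPA in the skin of K14CreER FAKflox/flox mice of the FVB strain, in which the keratin 14 promoter drives a tamoxifen-dependent Cre, and culture with 4-hydroxytamoxifen deleted FAK. FAK-/- cells carried the deletion alone. FAK-WT, FAK-nls and FAK-kd cells carried the same deletion and received by retrovirus wild-type FAK, FAK with impaired nuclear localization (R177A, R178A, R190A, R191A, R216A, R218A) or kinase-deficient FAK (K454R). Cells that received a construct were then selected in hygromycin, a step not described for FAK-/- cells. The re-expressing lines were made from 1 FAK-/- clone, so each line stands for 1 derivation and the 2 libraries of a line measure the spread within it. Peak lists carry no level of Ptk2, so the deletion was not checked here.

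The libraries differed in how much was called. The lists held 53728 and 39056 peaks in FAK-WT, 43153 and 35256 in FAK-/-, 24402 and 24974 in FAK-nls, and 32961 and 45956 in FAK-kd. The lists do not carry the sequencing depth, and the depths that the study gives elsewhere were not used here. Of 21938 protein-coding genes, 36.4% had a peak over an annotated transcript start in all 8 libraries and 46.7% in none. Of 7 squamous keratinocyte markers, 1 (Itga6) had such a peak in all 8 libraries, and Krt5, Krt14, Trp63, Itgb4, Cdh1 and Sfn had none in any library. Of the other markers examined, the immune genes Ptprc, Cd3e, Csf1r and Adgre1 had none, the fibroblast gene Pdgfra had one in all 8 and Dcn and Col1a1 in no library, and of the endothelial genes Cdh5 had one in FAK-WT replicate 1, Kdr in FAK-nls replicate 2 and Pecam1 in no library. The label of squamous carcinoma is thus met at 1 of the 7 keratinocyte genes in these lists. At Itga6, and likewise at Pdgfra, no library covered the outermost start, and the peaks lay over other transcript starts.

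As background, urokinase (Plau) cleaves plasminogen to plasmin at the cell surface, where the receptor encoded by Plaur holds it, and plasmin degrades fibrin and can activate latent metalloproteinases. Mmp3 and Mmp10 encode the stromelysins, Mmp9 a gelatinase, Mmp13 a collagenase and Mmp14 a membrane-anchored collagenase that activates proMMP2. Timp2 and Timp3 encode inhibitors of these enzymes, and TIMP2 also takes part in the activation of proMMP2 by the Mmp14 product. In carcinomas this system is known for remodelling the matrix and the basement membrane, and several of its promoters are known for AP-1 and ETS elements.

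The sequences on which the account turns are given first, 5′ to 3′ on the strand of the gene, from RefSeq's GRCm38.p6 genome. Capitals mark matches to the AP-1 motif (TGAGTCA or TGACTCA, which are each other's reverse complement) or to an ETS motif (AGGAAGT or CGGAAGT, searched on both strands). The 3 metalloproteinase genes clustered on chromosome 9 are shown because Mmp10 had a called region over its start and the other two did not. The Mmp10 sequence is chr9:7502088-7502351 (+ strand), from the edge of its called region to the base before the gene start, and the Mmp3 and Mmp13 sequences are the 200 bases before their starts, chr9:7445622-7445821 and chr9:7272314-7272513 (+ strand).
Mmp10 start region, called in the FAK-WT pair alone: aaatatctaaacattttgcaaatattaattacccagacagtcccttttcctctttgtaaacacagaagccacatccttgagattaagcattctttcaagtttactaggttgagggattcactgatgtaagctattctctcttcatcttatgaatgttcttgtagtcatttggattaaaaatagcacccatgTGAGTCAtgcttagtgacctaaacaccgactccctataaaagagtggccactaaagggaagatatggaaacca
Mmp3 start, called in no library: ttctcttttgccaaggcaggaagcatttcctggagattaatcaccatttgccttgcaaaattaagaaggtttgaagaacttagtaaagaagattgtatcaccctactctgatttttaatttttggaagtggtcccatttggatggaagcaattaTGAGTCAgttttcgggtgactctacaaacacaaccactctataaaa
Mmp13 start, called in no library: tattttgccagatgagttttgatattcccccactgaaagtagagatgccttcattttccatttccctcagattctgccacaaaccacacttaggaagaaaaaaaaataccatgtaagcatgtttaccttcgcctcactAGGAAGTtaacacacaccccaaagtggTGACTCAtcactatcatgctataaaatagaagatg

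Each of these 3 sequences held 1 AP-1 match, whose first base lay 73 bases before the GENCODE start of Mmp10 (63 before its RefSeq start), 46 before that of Mmp3 and 35 before that of Mmp13. The Mmp13 sequence also held an ETS match 62 bases before the start. In the 300-base promoter windows of RefSeq (250 bases before and 50 after the start), 4 of the 7 genes of the group with an entry held an AP-1 match (Mmp3, Mmp10, Mmp13 and Plaur), against 5.2% of 32851 promoters in the table. Mmp3, Mmp10 and Mmp13 are clustered metalloproteinase genes, so the 4 promoters cannot be counted as independent, and no test was made. An ETS match was found in 1 of the 7 (Mmp13) and in 15.1% of all promoters. Mmp9 and Plau had no entry. The AP-1 letters were therefore present before called and uncalled starts alike.

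The distal regions shown next are examples, chosen after their calls were seen, of regions called in most libraries and of one whose calls separated FAK-WT from FAK-/-: the Plau region 5.1 kb upstream (chr14:20831185-20831328, + strand, intergenic), the Plaur intronic region 8.1 kb inside the gene (chr7:24470414-24470710, + strand), the Timp2 intronic region 33.5 kb inside the gene (chr11:118322111-118322410, - strand), the Timp2 region 9.6 kb upstream (chr11:118365200-118365499, - strand) and the Timp3 intronic region 10.4 kb inside the gene (chr10:86310573-86310872, + strand). Each is the stretch common to the peaks of all libraries that called it, or the middle 300 bases of that stretch.
Plau 5.1 kb upstream, called in 6 libraries: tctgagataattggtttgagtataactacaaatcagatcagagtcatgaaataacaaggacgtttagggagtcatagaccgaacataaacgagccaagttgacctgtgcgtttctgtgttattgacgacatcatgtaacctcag
Plaur 8.1 kb inside, called in all 8 libraries: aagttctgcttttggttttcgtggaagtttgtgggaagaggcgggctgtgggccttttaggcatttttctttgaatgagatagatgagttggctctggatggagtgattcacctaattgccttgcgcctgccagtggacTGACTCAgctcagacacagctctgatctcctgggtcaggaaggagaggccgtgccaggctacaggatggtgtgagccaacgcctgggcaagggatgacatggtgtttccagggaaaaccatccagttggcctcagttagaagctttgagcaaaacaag
Timp2 33.5 kb inside, called in 5 libraries: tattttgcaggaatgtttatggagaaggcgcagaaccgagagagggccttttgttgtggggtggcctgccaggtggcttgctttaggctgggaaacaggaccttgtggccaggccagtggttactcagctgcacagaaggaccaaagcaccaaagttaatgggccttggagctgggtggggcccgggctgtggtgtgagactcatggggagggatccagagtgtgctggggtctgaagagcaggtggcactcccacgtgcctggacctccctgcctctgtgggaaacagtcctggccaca
Timp2 9.6 kb upstream, called in all 8 libraries: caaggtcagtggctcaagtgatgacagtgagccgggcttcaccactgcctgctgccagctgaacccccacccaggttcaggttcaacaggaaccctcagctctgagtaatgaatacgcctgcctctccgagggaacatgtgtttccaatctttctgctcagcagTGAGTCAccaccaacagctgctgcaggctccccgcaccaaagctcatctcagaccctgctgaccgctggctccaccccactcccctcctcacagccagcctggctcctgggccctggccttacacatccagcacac
Timp3 10.4 kb inside, called in all 8 libraries: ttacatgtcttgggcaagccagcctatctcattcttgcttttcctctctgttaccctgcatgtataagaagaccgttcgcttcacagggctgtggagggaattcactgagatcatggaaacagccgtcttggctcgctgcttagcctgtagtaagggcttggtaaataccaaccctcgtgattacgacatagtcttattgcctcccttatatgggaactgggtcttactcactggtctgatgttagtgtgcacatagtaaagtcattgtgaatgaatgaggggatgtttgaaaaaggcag

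The Plaur intronic region and the Timp2 region 9.6 kb upstream each held 1 AP-1 match in the stretch shown, and the stretches of Plau, Timp3 and the Timp2 intron held none. In the 300 bases centred on each of the 36 regions, 11 (30.6%) held an AP-1 match, against 28.7% of all 69399 regions, and 6 (16.7%) held an ETS match, against 10.9%. For regions shorter than 300 bases this window reached past the called edges. The ETS match counted at Plau 8.9 kb upstream lay outside its region of 257 bases. The AP-1 share was 26.1% among the 17917 regions called in all 8 libraries and 38.3% among the 1381 called in the FAK-WT pair alone, of which the Mmp10 start is one. These shares describe letters in a window and not occupied sites.

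All 36 regions were called in FAK-WT replicate 1. FAK-WT replicate 2 called 23, FAK-/- 23 and 22, FAK-nls 12 and 14, and FAK-kd 16 and 26. FAK-nls was lowest and did not overlap any other line, and the order followed the share of all regions that each library called: 77.0% and 55.9% in FAK-WT, 61.7% and 50.4% in FAK-/-, 34.9% and 35.7% in FAK-nls, and 47.1% and 65.8% in FAK-kd. As shares of the 36, the values were 100% and 63.9% in FAK-WT, 63.9% and 61.1% in FAK-/-, 33.3% and 38.9% in FAK-nls, and 44.4% and 72.2% in FAK-kd. When each library was cut to its 24383 strongest peaks, the number in the shortest list, between 34.9% and 35.1% of all regions were called in each, and the counts of the 36 became 16 and 11 in FAK-WT, 15 and 13 in FAK-/-, 12 and 14 in FAK-nls, and 10 and 16 in FAK-kd. At equal list length FAK-WT and FAK-kd spanned all values of FAK-nls.

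**Figure D1:**
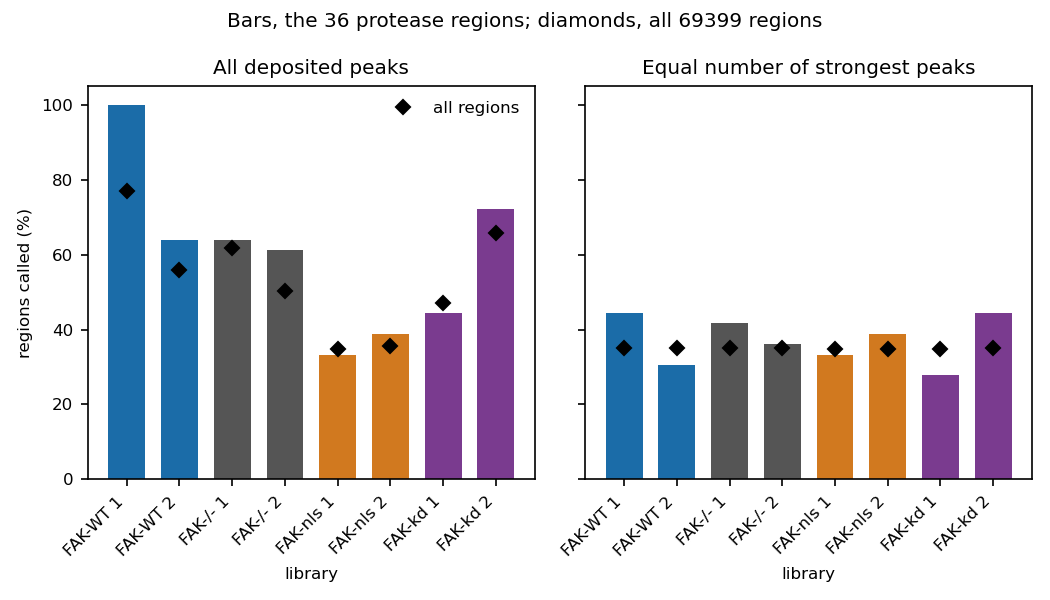
Share of regions called in each library (vertical axis, %), as bars for the 36 regions of the protease and inhibitor genes and diamonds for all 69399 regions, with all deposited peaks on the left and the 24383 strongest peaks of each library on the right. On the left the bars run from 33.3% in FAK-nls replicate 1 to 100% in FAK-WT replicate 1 and follow the diamonds; on the right they lie between 27.8% and 44.4%.

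The regions were of middling strength. Fold enrichment by library is given as deposited, with no centring. This ratio of the pileup to the local background of the same library had medians over the called regions of 4.08 and 3.63 in FAK-WT, 3.82 and 3.69 in FAK-/-, 4.19 and 4.00 in FAK-nls, and 3.73 and 4.49 in FAK-kd, against medians over all peaks of 4.10 to 4.45. Ranked by p-value within a library, where 0% is the strongest, the median position was between 43.9% and 65.5% of the list. Of the 36 regions, 9 (25.0%) were called in all 8 libraries, against 25.8% of all regions, and 6 (16.7%) in 1 library only, against 28.6%. The 6 were all called in FAK-WT replicate 1, the longest list: Mmp9 4.7 kb upstream, Mmp13 10.6 kb upstream, Mmp14 17.6 kb upstream and 11.9 kb inside, Plau 8.9 kb upstream, and Timp2 8.9 kb inside.

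**Figure D2:**
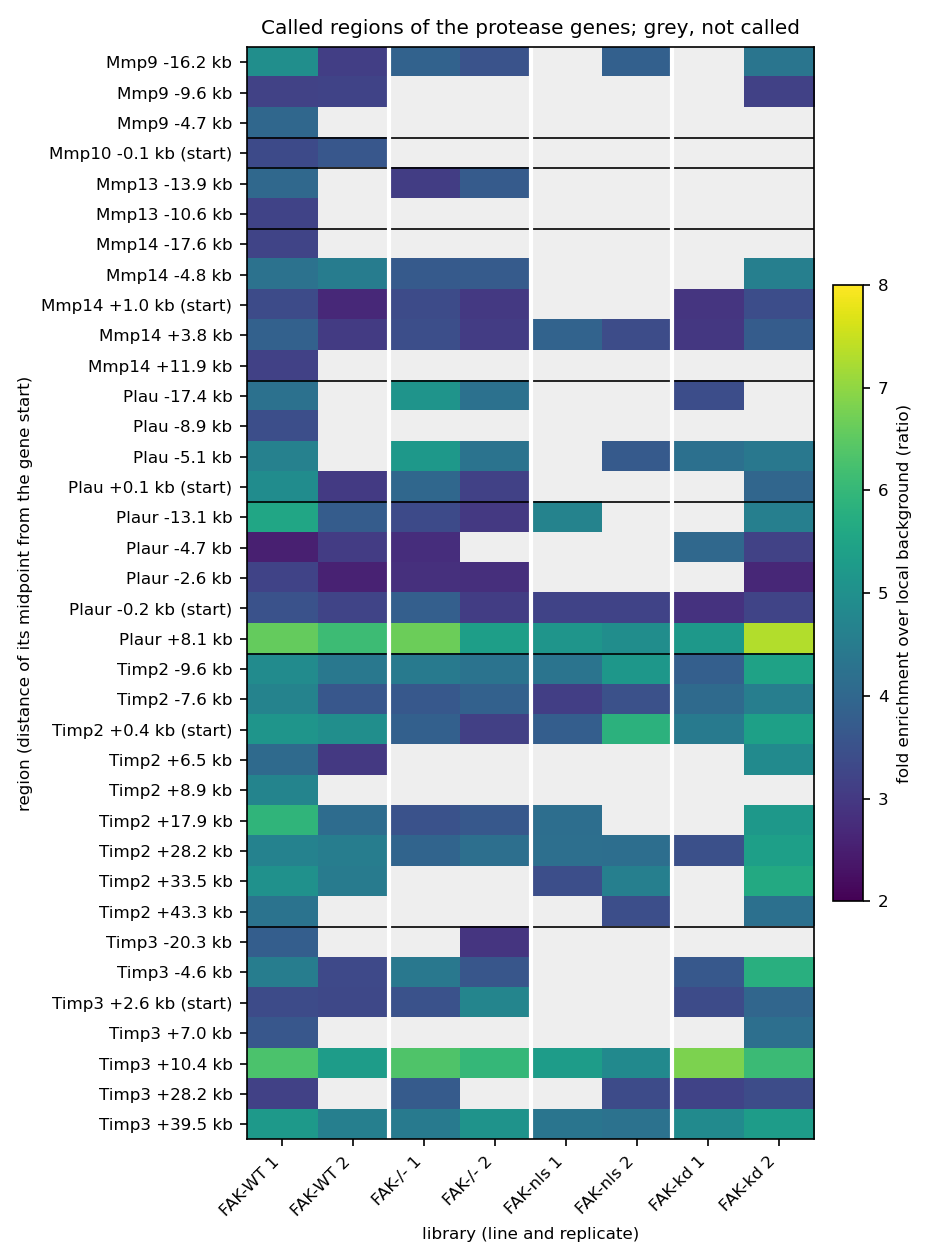
Fold enrichment (colour scale, ratio to local background, darker is lower) of each of the 36 regions (rows, by gene and distance of the midpoint from the gene start in kb, negative upstream) in each of the 8 libraries (columns). Grey cells were not called; the FAK-WT replicate 1 column is full, the FAK-nls columns hold 12 and 14 calls, and the brightest rows are Plaur 8.1 kb and Timp3 10.4 kb inside the genes.

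Among the metalloproteinases, the Mmp10 start region was the only one of the 36 regions with calls in the FAK-WT pair and nowhere else. That pattern was found at 2.78% of the 36 and at 1.99% of all regions, and where a call had to cover 50% of a region at 3 of the 36 (8.33%) and 2.58% of all regions. The region, chr9:7502088-7502373, spans the start and part of the first exon, with its midpoint 0.1 kb upstream. The peak of FAK-WT replicate 1 (chr9:7502088-7502373) covered the start, the peak of FAK-WT replicate 2 (chr9:7502119-7502326) ended just before it, and both held the AP-1 match. Fold enrichment was 3.34 in FAK-WT replicate 1 and 3.64 in FAK-WT replicate 2. Both peaks stood low in their lists, at rank 49410 of 53703 and 32035 of 39036, and their −log10 q values were 1.87 and 2.17. With a minimum −log10 q of 3, or with equal list lengths, it was called in 0 libraries. The groups thus did not overlap in calls, and both calls were near the bottom of what each library reported.

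Mmp3, the other stromelysin, and Mmp13 had no call at the start. Mmp13 had 2 upstream regions. The one at 13.9 kb had fold enrichments of 4.02 in FAK-WT replicate 1, 3.10 in FAK-/- replicate 1 and 3.72 in FAK-/- replicate 2, and was not called in FAK-WT replicate 2, FAK-nls or FAK-kd. The one at 10.6 kb had 3.21 in FAK-WT replicate 1 alone. Mmp3, Mmp10 and Mmp13 lie in a run of 10 metalloproteinase genes from Mmp13 to Mmp7 on chromosome 9. That run had 7 regions over 447 kb (15.7 per Mb, against 25.5 per Mb over the 21 chromosomes), and 7 of its 10 genes had no region in their windows.

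Mmp9 had no call within the gene and 3 regions upstream. The region 9.6 kb upstream (chr2:164930793-164931532) was called in the 2 FAK-WT libraries with fold enrichments of 3.18 and 3.21, in FAK-kd replicate 2 with 3.17, and in neither FAK-/- nor FAK-nls library. Its ranks were 50319 of 53703, 35881 of 39036 and 42767 of 45937, at 93.7%, 91.9% and 93.1% of the way down their lists. The region 16.2 kb upstream, 12868 bp from the start of Zfp335, had 4.96 and 3.11 in FAK-WT, 3.89 and 3.54 in FAK-/-, 3.83 in FAK-nls replicate 2 and 4.34 in FAK-kd replicate 2, and was not called in FAK-nls replicate 1 and FAK-kd replicate 1. There the 2 FAK-WT values bracketed all 4 of the others.

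Mmp14 had 5 regions. Its start region (chr14:54431367-54433789) runs from the promoter to the first exons, and the start itself was covered by peaks in FAK-WT replicate 1 and both FAK-kd libraries, while the peaks of FAK-WT replicate 2 and FAK-/- lay inside the gene. The region had fold enrichments of 3.38 and 2.68 in FAK-WT, 3.37 and 3.0 in FAK-/-, 2.92 and 3.42 in FAK-kd, and no call in either FAK-nls library. FAK-WT replicate 1 had 2 peaks there, and its 3.38 is that of the peak inside the gene (chr14:54433174-54433705), not of the one over the start. The 3 lines with calls overlapped. The region 3.8 kb inside the gene was called in every library, with 3.87 and 3.05 in FAK-WT, 3.43 and 3.07 in FAK-/-, 3.91 and 3.40 in FAK-nls, and 2.97 and 3.74 in FAK-kd, so the gene body was called in FAK-nls while the start region was not. The region 4.8 kb upstream lies at the start of Mrpl52 and was called in FAK-WT (4.25 and 4.53), FAK-/- (3.70 and 3.72) and FAK-kd replicate 2 (4.60), and the one 17.6 kb upstream lies at the start of Slc7a7. These 2 regions cannot be assigned to Mmp14 rather than to the genes whose starts they cover.

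In the plasminogen branch, the start of Plau (chr14:20836450-20837057) had fold enrichments of 4.91 and 3.03 in FAK-WT, 4.00 and 3.17 in FAK-/-, and 3.98 in FAK-kd replicate 2, and was not called in FAK-kd replicate 1 or in either FAK-nls library. FAK-WT and FAK-/- overlapped. The region 5.1 kb upstream, whose sequence is given above, was called in 6 libraries, with 4.63 in FAK-WT replicate 1, 5.20 and 4.28 in FAK-/-, 3.70 in FAK-nls replicate 2, and 4.21 and 4.41 in FAK-kd. It was not called in FAK-WT replicate 2, and its highest standing in a list, rank 7435 of 43136, was in FAK-/- replicate 1.

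A further Plau region, 17.4 kb upstream (chr14:20818752-20819753, intergenic), was strongest in FAK-/- replicate 1. Its fold enrichment was 5.11 and 4.23 in FAK-/-, 4.23 in FAK-WT replicate 1 and 3.41 in FAK-kd replicate 1, and it was not called in FAK-WT replicate 2, FAK-kd replicate 2 or FAK-nls. At equal list length it was the only one of the 36 called in both FAK-/- libraries and in neither FAK-WT library, a pattern found at 1.92% of all regions. In the full lists FAK-WT replicate 1 called it as well, at rank 35946 of 53703.

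Plaur, which encodes the urokinase receptor, had a start region (chr7:24461385-24463184) called in all 8 libraries. Peaks covered the start itself in 6 of them, and those of FAK-/- replicate 1 and FAK-kd replicate 1 ended upstream of it. The region had fold enrichments of 3.52 and 3.22 in FAK-WT, 3.82 and 3.09 in FAK-/-, 3.20 and 3.20 in FAK-nls, and 2.87 and 3.24 in FAK-kd. As deposited, FAK-/- spanned the values of FAK-WT and FAK-nls, and FAK-kd reached into the range of FAK-WT. The AP-1-bearing intronic region 8.1 kb inside was the highest of the gene, with 6.59 and 6.11 in FAK-WT, 6.66 and 5.37 in FAK-/-, 5.13 and 4.94 in FAK-nls, and 5.20 and 7.30 in FAK-kd. Here both FAK-nls values were below the others as deposited. Once each library was centred on its median, they stayed below both FAK-WT and both FAK-/- values, but FAK-kd replicate 1 fell between them. FAK-WT minus FAK-nls was 0.15 ± 0.15 in log2 fold enrichment (limma, adjusted p of 0.639). The 2 regions between 2 and 5 kb upstream had calls in each FAK-WT library and in no FAK-nls library: the one at 4.7 kb had 2.52 and 3.06 in FAK-WT, 2.79 in FAK-/- replicate 1, and 4.02 and 3.18 in FAK-kd, and the one at 2.6 kb had 3.21 and 2.58 in FAK-WT, 2.84 and 2.82 in FAK-/-, and 2.66 in FAK-kd replicate 2.

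**Figure D3:**
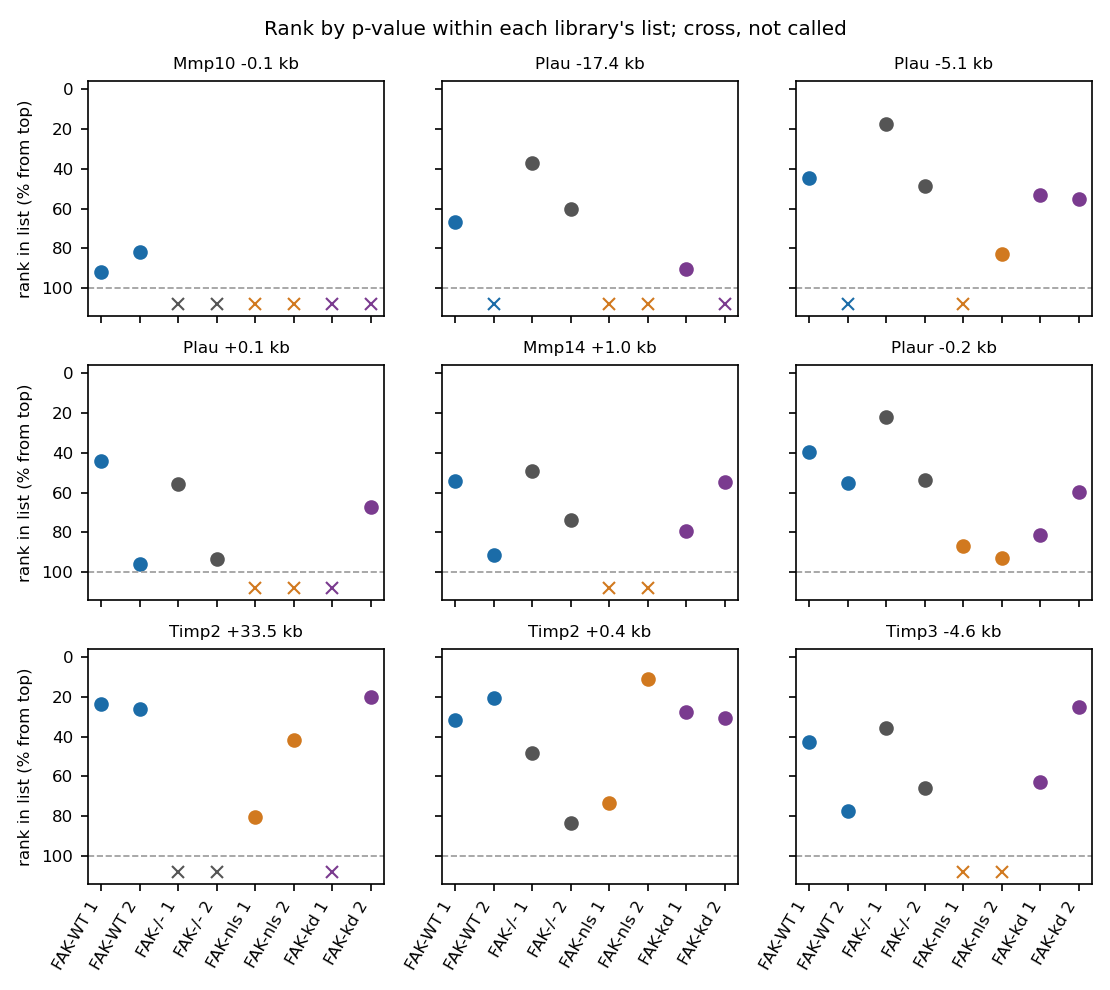
Position of the peak in each library's list when ranked by p-value (vertical axis, % from the top, strongest at the top) at 9 regions named in the text, with 1 point per library coloured by line and crosses for no call. The Mmp10 points lie at 92.0% and 82.1%, the Plau region 17.4 kb upstream is highest in FAK-/- replicate 1 at 37.3%, and the starts of Plau and Mmp14 and the Timp3 region 4.6 kb upstream have crosses in both FAK-nls libraries.

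The inhibitor genes held 16 of the 36 regions. The start region of Timp2 (chr11:118354751-118355870) had a peak over a transcript start in all 8 libraries, and over the outermost start in FAK-WT replicate 1 and both FAK-nls libraries, with fold enrichments of 5.13 and 4.97 in FAK-WT, 3.85 and 3.14 in FAK-/-, 3.79 and 5.85 in FAK-nls, and 4.47 and 5.42 in FAK-kd. Both FAK-/- values were below both FAK-WT values and both FAK-kd values, and FAK-nls spanned the range of FAK-WT. The intronic region 33.5 kb inside Timp2 was called in FAK-WT (5.03 and 4.50), FAK-nls (3.45 and 4.58) and FAK-kd replicate 2 (5.65), and in neither FAK-/- library nor FAK-kd replicate 1. It stood at rank 12582 of 53703 and 10238 of 39036 in FAK-WT, at 23.4% and 26.2% of the way down, and was the only one of the 36 that kept a call in each FAK-WT library and in neither FAK-/- library at equal list length (2.0% of all regions). Its midpoint lay nearer to the start of Cep295nl (11800 bp) than to that of Timp2.

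Another Timp2 region with calls in each FAK-WT library and in neither FAK-/- library lay 6.5 kb inside the gene, with 4.08 and 2.99 in FAK-WT and 4.88 in FAK-kd replicate 2. The region 9.6 kb upstream of Timp2, also AP-1-bearing, had 4.89 and 4.41 in FAK-WT, 4.45 and 4.28 in FAK-/-, 4.32 and 5.17 in FAK-nls, and 3.81 and 5.45 in FAK-kd, so that on these uncentred values FAK-nls and FAK-kd spanned FAK-WT and FAK-/- overlapped it. The region 17.9 kb inside lies in Cep295nl, a gene within the Timp2 locus.

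Timp3 and its 7 regions lie within the gene Syn3. The outermost Timp3 start was covered in no library, and the region 2.6 kb inside covers the start of another transcript. That region had fold enrichments of 3.38 and 3.31 in FAK-WT, 3.52 and 4.74 in FAK-/-, 3.38 and 3.99 in FAK-kd, and no call in FAK-nls, so that both FAK-/- values lay above both FAK-WT values. The region 4.6 kb upstream had 4.54 and 3.33 in FAK-WT, 4.40 and 3.60 in FAK-/-, 3.65 and 5.79 in FAK-kd, and again no call in FAK-nls. The intronic region 10.4 kb inside was among the strongest of the 36, with 6.29 and 5.32 in FAK-WT, 6.34 and 6.0 in FAK-/-, 5.32 and 4.84 in FAK-nls, and 6.82 and 6.09 in FAK-kd, and it reached rank 380 of 32938 in FAK-kd replicate 1. FAK-nls replicate 2 was the lowest there, and as deposited FAK-nls replicate 1 was level with FAK-WT replicate 2.

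The comparison of FAK-WT with FAK-/- asks what follows the loss of FAK. As described, these lines also differ in retroviral delivery and hygromycin selection, which cannot be told apart from it. A call in each FAK-WT library and in neither FAK-/- library was found at 4 of the 36 (11.1%) and at 4.89% of all regions. The 4 were Mmp9 9.6 kb upstream, the Mmp10 start region, and Timp2 6.5 and 33.5 kb inside. The reverse pattern was found at 0 of the 36 and 1.18% of all regions, but in the full lists it could not occur among the 36 in any of the 3 comparisons, since FAK-WT replicate 1 called all of them. With 2 libraries a line no exact test of calls can go below p = 0.333, and none was made. The first count was 12 without FAK-WT replicate 2, where the share of all regions rose to 20.4%. It was 2 with a minimum −log10 q of 3 (3.86% of all regions). These were Timp2 33.5 kb inside, the 1 of the 4 that held the pattern there, and Plaur 13.1 kb upstream. The latter, 2797 bp from the start of Irgc1, had calls in both FAK-/- libraries in the full lists. At equal list length the first count was 1, again Timp2 33.5 kb inside (2.0%), and the reverse count was also 1, Plau 17.4 kb upstream (1.92%). The reverse count was 3 without FAK-WT replicate 1 (4.68% of all regions).

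For FAK-WT against FAK-nls, which asks what follows impaired nuclear localization, 10 of the 36 (27.8%) had a call in each FAK-WT library and in neither FAK-nls library, against 15.3% of all regions. They included the Mmp9 region 9.6 kb upstream, the start regions of Mmp10, Mmp14 and Plau, and the region 4.8 kb upstream of Mmp14. The rest were the Plaur regions 4.7 and 2.6 kb upstream, Timp2 6.5 kb inside, and Timp3 4.6 kb upstream and 2.6 kb inside. At Mmp10 and Mmp14 the peak of FAK-WT replicate 2 did not cover the start itself. The reverse was found at 0 of the 36 and 0.248% of all regions. At 3 of the 36 (8.33%; the Mmp14 start region and both Timp3 regions) all 6 libraries other than FAK-nls had a call, against 4.12% of all regions, and none of these 3 showed the pattern with a minimum −log10 q of 3, at equal list length or with 50% of a region covered. The counts over the 36 were then 1 (Timp2 7.6 kb upstream, called in all 8 full lists; 4.01% of all regions), 0 (0.598%) and 0 (3.99%). The count of 10 became 20 without FAK-WT replicate 2 (37.6% of all regions), 4 with a minimum −log10 q of 3 (11.1%, against 13.2% of all regions) and 0 at equal list length (2.85% of all regions), where the reverse was found at 0 of the 36 and 2.48% of all regions. Of the 4, only Mmp14 4.8 kb upstream was among the 10, and the others were the Plaur start, Timp2 7.6 kb upstream and Timp2 17.9 kb inside. The FAK-nls lists are the shortest, and list length and line cannot be told apart in the full lists.

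The comparison of FAK-WT with FAK-kd asks what follows the loss of kinase activity. A call in each FAK-WT library and in neither FAK-kd library was found at 1 of the 36 (2.78%) and at 4.33% of all regions. That 1 was the Mmp10 start region. The reverse was found at 0 of the 36 and 0.83% of all regions. The count was 9 without FAK-WT replicate 2 (18.1% of all regions), 10 without FAK-kd replicate 2 (11.8%), 4 where a call had to cover 50% of a region (5.57%; the Mmp10 start, Mmp9 9.6 kb upstream, the Timp2 start and Timp3 4.6 kb upstream) and 0 with a minimum −log10 q of 3 (3.16%). The reverse count was 2 without FAK-WT replicate 1 (3.7% of all regions). At equal list length the 1 region with this pattern was the Plaur start (1.8% of all regions), and the reverse was found at 0 of the 36 (1.53% of all regions). The 3 comparisons share the FAK-WT libraries.

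The 9 regions called in all 8 libraries could be compared in strength, by limma on log2 fold enrichment with each library centred on its median over the 17917 regions called throughout. None of the 9 passed an adjusted p of 0.05 in any contrast, where the background was 5 regions (0.0279%) against FAK-/-, 0 (0.0%) against FAK-nls and 3 (0.0167%) against FAK-kd. At an unadjusted p under 0.05 there were 1, 0 and 0 of the 9, and 1375, 2838 and 1111 of all 17917. The 5 became 0 without either FAK-WT library or FAK-/- replicate 2, 1 without FAK-/- replicate 1 and 2 without either FAK-nls library, and the 3 became 0 without FAK-WT replicate 1 or FAK-kd replicate 2. A line left with 1 library is assumed in these fits to vary like the other lines. The differences of the 9 in log2 fold enrichment, FAK-WT minus the other line, had medians of -0.03, -0.04 and 0.01 against FAK-/-, FAK-nls and FAK-kd, and medians over all regions were -0.01, -0.03 and -0.01.

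The Timp2 start had the largest difference of the 9: 0.43 ± 0.17 (SE) higher in FAK-WT than in FAK-/-, with a 95% interval of 0.07 to 0.78 and a Benjamini-Hochberg adjusted p of 0.537 in limma. On pileup it was 0.24. Against FAK-nls it was -0.08 ± 0.17 and against FAK-kd 0.01 ± 0.17. The region 3.8 kb inside Mmp14 had the lowest value, -0.26 ± 0.14 in FAK-WT minus FAK-nls (95% interval -0.57 to 0.04, adjusted p of 0.388 in limma). It was -0.03 on pileup, -0.09 without centring, -0.16 with quantile normalization, -0.14 without FAK-nls replicate 1, and -0.39 without FAK-nls replicate 2. At the Plaur start FAK-WT minus FAK-kd was 0.12 ± 0.14 (95% interval -0.18 to 0.41, adjusted p of 0.999 in limma), and 0.22 on pileup. For the 9 regions and 3 contrasts, log2 differences ran from -0.26 to 0.43 in fold enrichment and from -0.51 to 0.59 in pileup, with the extremes at other regions, and a p that misses the threshold does not show that the lines were alike.

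**Figure D4:**
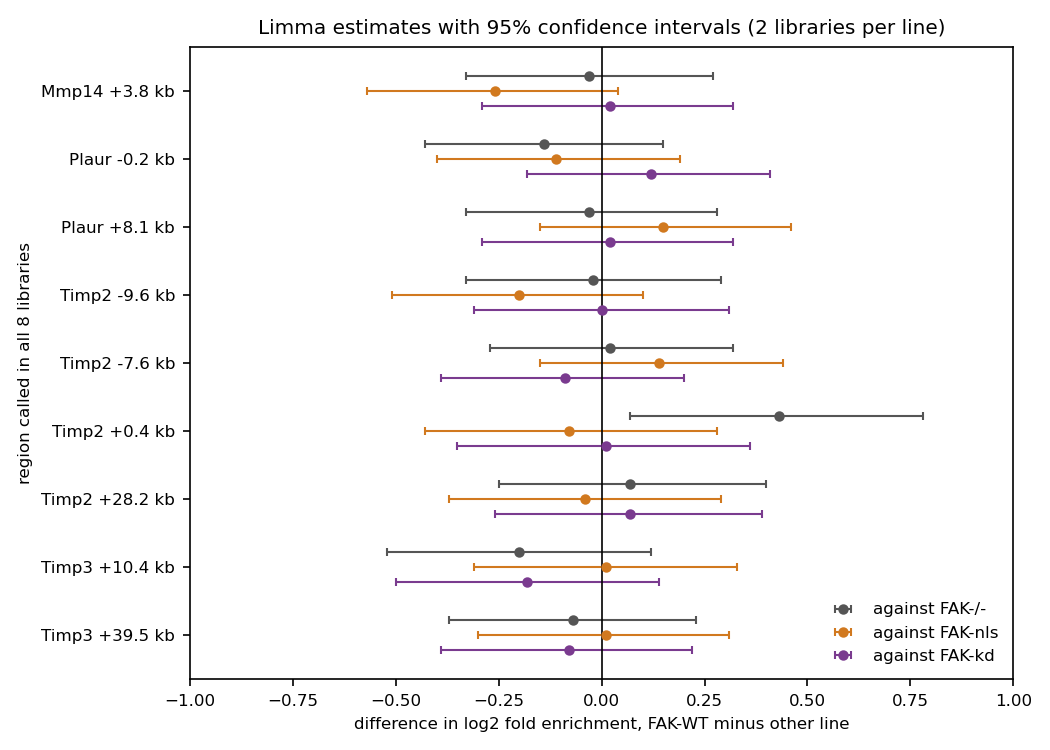
Difference in log2 fold enrichment (horizontal axis, FAK-WT minus the other line) with 95% confidence intervals from limma, at the 9 regions called in all 8 libraries (rows), for FAK-/- (grey), FAK-nls (orange) and FAK-kd (purple). Only the interval of the Timp2 start against FAK-/- (0.07 to 0.78) lies off 0, with an adjusted p of 0.537.

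The other genes of the system were read from a list of 47 (18 metalloproteinases, 11 genes of the plasminogen system, 3 inhibitors, 10 ADAM and ADAMTS proteases and 5 cathepsins), which held 180 regions at 39 genes. Of the 180, 5 (2.78%) had a call in each FAK-WT library and in neither FAK-/- library, 28 (15.6%) showed that pattern against FAK-nls and 4 (2.22%) against FAK-kd, where all regions had 4.89%, 15.3% and 4.33%, and the reverse numbers were 1, 0 and 0 (1.18%, 0.248% and 0.83% of all regions). The pattern of the FAK-WT pair alone was found at 2 of them (1.11%, against 1.99% of all regions). The start of Adamts4, an aggrecan-cleaving protease, had fold enrichments of 3.68 and 3.16 at ranks 17774 and 20839 of 53703 and 39036, and a region 12.7 kb upstream of Mmp25, nearer to Bicdl2, had 3.12 and 3.37 at ranks 50625 and 33161. The Adamts4 calls stood higher in both lists than those in the Mmp10 start region.

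A peak covered a transcript start in all 8 libraries at 1 of the 9 genes of the group (Timp2, 11.1%) and at 14 of the 47 (29.8%), against 36.4% of all protein-coding genes. The 14 included Plat, which encodes tissue plasminogen activator, the plasminogen receptor genes Plgrkt and S100a10, and the inhibitor gene Timp1. No start was covered in any library at 3 of the 9 (Mmp3, Mmp9 and Mmp13, 33.3%) and at 20 of the 47 (42.6%), against 46.7% of all protein-coding genes, among them Mmp1a, Mmp1b, Mmp7, Mmp8 and Mmp12 of the chromosome 9 run and Mmp2, the target of the Mmp14 product. In limma, 0 of the 54 regions of the list called in all 8 libraries passed the adjusted threshold in any contrast, and 4, 12 and 4 had an unadjusted p under 0.05 against FAK-/-, FAK-nls and FAK-kd (against 7.67%, 15.8% and 6.2% of all 17917 regions).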

How the data were processed

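Accessible regions were measured by ATAC-seq in 4 SCC lines with 2 libraries each. The authors aligned reads to mm10 with the bcbio pipeline and called broad peaks in each library separately with MACS2 2.1.1 (stated q threshold of 0.05). In the lists, 0.784% to 3.83% of the peaks of a library had a q above 0.05, and these were kept. Handling of duplicate reads is not given in the sources used here. The deposited lists give, per the file headers, the peak length in bp, the pileup (signal, in reads), −log10 of the p-value, −log10 of the q-value and the fold enrichment over the local background (a ratio), all as means over a peak. The lists used here carry no read counts per region, so no count test was made and no interval covers counting error; the sequencing depths that the study gives for its libraries were not used here.

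Peaks off the autosomes, X and Y (15 to 25 a library) were left out, and the rest, over all libraries, were merged where they shared 1 bp. A call is any peak in a region, and a start region is one that covers an annotated transcript start. Where a start is named among the regions, its start region is meant, whether or not each peak covers the start itself. Where a library had several peaks in a region, the one with the highest fold enrichment was used. Identical peaks made up at most 0.0361% of any pair of lists. Genes came from GENCODE M21. Log2 fold enrichment was fitted in limma 3.58.1 (R 4.3.3) with 4 line means over the 17917 regions called in all 8 libraries (two-sided; Benjamini-Hochberg over all these regions); the code was tested on simulated data. All 9 genes are named; regions at a gene start, those whose calls separated FAK-WT from another line and those past the threshold are given by library, and further regions were chosen after their values were seen. The alternatives were a minimum −log10 q of 3, an equal number of strongest peaks, 50% coverage, a 10 kb window, quantile or no centring, pileup, length-weighted means, the replicate block and leaving out each library. The genes and lists were chosen with earlier results of these data known. The study calls its 2 libraries a line biological replicates; where they share a culture, p-values measure only the spread between them.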

Additional observations from a re-analysis of the deposited data

How the results depend on the processing

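The counts over the 36 regions moved with the peak threshold, the list length and single libraries; the cause was not tested beyond the smaller number of peaks that a stricter threshold leaves by construction. Regions called in each FAK-WT library but in no library of the compared line were 4, 10 and 1 against FAK-/-, FAK-nls and FAK-kd. The regions behind these counts changed with the setting. The counts were 2, 4 and 0 with a minimum −log10 q of 3, and 1, 0 and 1 with an equal number of strongest peaks. Where a call had to cover 50% of the region they were 4, 7 and 4 (6.11%, 17.7% and 5.57% of all regions). Leaving out 1 library gave 4 to 12, 10 to 20 and 1 to 10, the highest being without FAK-WT replicate 2 against FAK-/- and FAK-nls and without FAK-kd replicate 2 against FAK-kd. All regions moved too: the shares with these patterns were 4.89%, 15.3% and 4.33% in the full lists and 20.4%, 37.6% and 11.8% in those 3 settings. The reverse count against FAK-/- was 0 in the full lists, 1 with an equal number of strongest peaks and 1 with 50% coverage (Timp3 2.6 kb inside; 1.3% of all regions), and 0 to 3 when a library was left out; against FAK-kd it was 0 to 2. A 10 kb window changed no count of these patterns. The Mmp10 start region was called in 2 libraries, and in 0 with a minimum −log10 q of 3 or an equal number of strongest peaks. The start itself was covered in 1 library.

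In limma the regions past the threshold among all 17917 were 5, 0 and 3. Against FAK-/- they were 1 with quantile normalization, 0 without centring, 59 on pileup, 0 with a minimum −log10 q of 3 and 0 to 6 when a library was left out. Against FAK-nls they were 196 on pileup and 0 in the other settings. Against FAK-kd they were 0 without centring, 40 on pileup, 0 with a minimum −log10 q of 3 and 0 to 3 when a library was left out. Libraries with the same number did not deviate together (correlations of -0.23 to 0.08), so the replicate numbers do not pair the samples; with the replicate block the count against FAK-/- was 1 and the other counts kept their values. None of the regions of the group that were fitted (5 of the 9 with a minimum −log10 q of 3, otherwise all 9) passed the threshold under these settings, with the lowest adjusted p in limma, 0.137, on pileup. The differences named at the Timp2 start (0.33 to 0.53 when a library was left out), Mmp14 3.8 kb inside (-0.39 to -0.14) and the Plaur start (0.07 to 0.16) kept their sign in every setting in which they could be fitted, but not their size: on pileup they were 0.24, -0.03 and 0.22, and without centring 0.54, -0.09 and 0.14.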
